A study of Mus musculus with 10 samples.

Results

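Mammalian chromatin is moved, evicted and re-spaced by ATP-dependent remodelling complexes, and 51 genes that encode their subunits are described here, out of 48897 rows in each of the 2 expression tables. They were chosen by symbol from known complex membership and not from their values. The list holds 22 SWI/SNF subunits (without the ARID subunits), 12 subunits of NuRD, 6 further CHD proteins, 6 ISWI genes, 3 ATPases of the INO80 family, and Hells and Atrx. All 51 were found in both tables. RNA-seq was measured in 10 libraries in 4 groups. Sorted prostate epithelium (EpCAM positive, CD45 negative, C57BL/6 mice, 3 months old) came from 3 control mice and from 3 mice labelled Arid1aPC-/- (Arid1a KO below), and its values are in RPKM (reads scaled by gene length and library size). The deletion is driven by a Cre that is active in prostate epithelial cells, and sorting does not ensure that every sorted cell had recombined. Myc-CaP cells, a mouse prostate cancer line of FVB background that carries a Myc transgene, gave 2 libraries with an empty vector (EV) and 2 labelled Arid1a KO after a CRISPR guide, in TPM (reads scaled by gene length, with a fixed total per library). The labels give the line as the source. The study's methods describe sequencing of WT and Arid1a KO Myc-CaP cells, and also of cells sorted from tumours grown from the line in mice. The labels alone do not settle which of these the libraries are. In these bulk samples, fewer cells of a type and less RNA per cell cannot be told apart.

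Each of these complexes is built around a motor of the SNF2 ATPase family that uses ATP to translocate DNA over the histone octamer. SWI/SNF (BAF and PBAF) slides and evicts nucleosomes at enhancers and promoters, NuRD joins a CHD motor to the histone deacetylases HDAC1 and HDAC2 and is mostly linked to repression, ISWI spaces nucleosomes, and the INO80 family exchanges histone variants such as H2A.Z. Arid1a, the gene deleted here, is the largest subunit of the canonical BAF form and is one of the most frequently mutated remodeller genes in human carcinoma. Many subunits exist as paralogs that exclude each other from a complex, such as Smarca4 (BRG1) and Smarca2 (BRM), so that the relative level of paralogs is a property of its own.

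Promoter sequences are shown for 4 SWI/SNF genes on which the results turn. Smarcd3 had opposite directions in the 2 systems, Bcl7b and Bcl7c fell together in the epithelium, and Smarca2 was the only one of the 16 tested ATPase genes that fell there. RefSeq promoters (GRCm38.p6) were matched by symbol for 40 of the 51 genes. The 250 bases before the RefSeq start site are given 5′ to 3′ on the strand of the gene, at chr5:24602003-24602252 (minus strand) for Smarcd3, chr5:135168122-135168371 (plus) for Bcl7b, chr7:127708767-127709016 (minus) for Bcl7c and chr19:26604910-26605159 (plus) for Smarca2. Capitals mark a match, on either strand, to 1 of 4 motifs searched, an E-box (CACGTG, its own reverse complement), an AP-1 site (TGANTCA), an ETS site (CCGGAAG) and an E2F site (TTCCCGC). The 4 motifs do not overlap one another in these windows.
Smarcd3: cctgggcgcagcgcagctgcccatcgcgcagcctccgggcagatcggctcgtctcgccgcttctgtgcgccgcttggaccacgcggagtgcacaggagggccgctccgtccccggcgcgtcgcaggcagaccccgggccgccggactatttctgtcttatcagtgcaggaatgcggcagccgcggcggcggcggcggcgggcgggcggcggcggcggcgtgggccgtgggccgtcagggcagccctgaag
Bcl7b: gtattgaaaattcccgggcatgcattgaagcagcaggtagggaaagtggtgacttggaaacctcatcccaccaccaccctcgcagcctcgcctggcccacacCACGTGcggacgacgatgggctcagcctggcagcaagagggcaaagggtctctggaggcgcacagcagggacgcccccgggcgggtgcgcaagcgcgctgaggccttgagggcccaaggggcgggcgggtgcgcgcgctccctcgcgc
Bcl7c: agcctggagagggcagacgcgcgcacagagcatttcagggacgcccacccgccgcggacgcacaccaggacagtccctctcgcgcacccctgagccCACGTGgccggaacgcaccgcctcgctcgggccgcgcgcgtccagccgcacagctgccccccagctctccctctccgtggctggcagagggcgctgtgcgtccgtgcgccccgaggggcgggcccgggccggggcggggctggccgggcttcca
Smarca2: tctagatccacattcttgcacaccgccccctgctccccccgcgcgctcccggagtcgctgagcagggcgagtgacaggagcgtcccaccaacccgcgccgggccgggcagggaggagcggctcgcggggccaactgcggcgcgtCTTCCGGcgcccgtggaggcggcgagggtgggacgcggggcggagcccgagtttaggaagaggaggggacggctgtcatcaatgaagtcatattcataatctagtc

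Both BCL7 promoters held the same E-box at nearly the same distance from the RefSeq start. It lay from base 148 to base 143 before that start in Bcl7b and from base 154 to base 149 in Bcl7c. Smarca2 held an ETS match on the opposite strand from base 106 to base 100 before its start, and Smarcd3 held none of the 4 motifs in this window. The E-box was present in 6.05% of all 27025 promoters of this length and in 4 of the 40 promoters of the remodeller genes (Bcl7b, Bcl7c, Bptf and Pbrm1). ETS was matched in 7.05% of all promoters and in 4 of the 40, E2F in 3.84% and in 5, and AP-1 in 6.87% and in 1. The windows were rich in CpG, with a median of 21 CpG dinucleotides over the 40 genes against 6 over all promoters, and with 38 in Smarcd3, 32 in Bcl7c, 28 in Smarca2 and 21 in Bcl7b. The RefSeq start of Smarcd3 is internal to its GENCODE M21 gene, which spans chromosome 5 from 24590818 to 24624411, and all 250 printed bases lie inside that span. Of the printed bases, 89 in Bcl7b, 167 in Bcl7c and 110 in Smarca2 lie inside the GENCODE gene, whose annotated start is further upstream. The E-box of Bcl7b therefore lies upstream of its GENCODE gene, whereas the E-box of Bcl7c and the ETS match of Smarca2 lie inside theirs. The near-equal distance of the 2 E-boxes holds for the RefSeq starts only.

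Arid1a was examined first as the check of the labels. In the epithelium, its level was 27.8, 21.9 and 26.5 RPKM in the control libraries and 31.1, 28.8 and 30.8 RPKM in the libraries labelled Arid1a KO. The level was therefore not reduced under the Arid1a KO label, and the difference did not pass the test (log2 fold change 0.25, SE 0.09, limma, adjusted p = 0.054). Which exons the deletion removes was not examined here, and the level over the whole gene does not settle the label. Directions in the epithelium below are those of the libraries so labelled. In Myc-CaP, Arid1a was 60.5 and 61.0 TPM with EV and 39.5 and 40.3 TPM with Arid1a KO, a called fall of 0.59 on the log2 scale (adjusted p = 0.0102). The other ARID subunits were not called in either table. Arid1b, the paralog of Arid1a, was 19.7 and 19.0 TPM with EV and 22.9 and 23.6 TPM with Arid1a KO (adjusted p = 0.129), and in the epithelium the groups overlapped.

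The composition of the 2 systems was checked against marker lists. In the epithelium, Epcam was at 304 ± 40.9 RPKM in the controls and 201 ± 21.5 RPKM in the libraries labelled Arid1a KO (SD, n = 3 each), so the positive marker of the sort was present. Ptprc, which encodes CD45, the marker sorted against, was not absent. It was at 30.3, 26.01 and 29.5 RPKM in the controls and at 56.2, 58.1 and 57.6 RPKM with the label Arid1a KO (log2 fold change 0.98, limma, adjusted p = 5.36e-05). In Myc-CaP, Epcam was listed at 0 in 3 of the 4 libraries and at 0.128 TPM in the other, and Krt8 was at 1.07 and 0.79 TPM with EV and 40.3 and 38.8 TPM with Arid1a KO, so the epithelial markers were nearly absent from the EV libraries. Several other lists moved with the groups in the epithelium. Of 3 basal markers, Krt5 and Krt14 rose (summed level 389 to 531 RPKM in the controls and 1450 to 1770 RPKM with the label Arid1a KO) while Trp63 was not called. Of 6 epithelial markers 3 fell, Epcam among them, and of 5 smooth muscle markers 4 fell and Acta2 rose. Of 5 leukocyte markers, 4 rose and Cd52 fell (summed level 759 to 790 RPKM in the controls and 863 to 922 RPKM with the label Arid1a KO), 9 of 10 proliferation genes rose (116 to 123 and 163 to 171 RPKM), and all 7 seminal vesicle genes fell (19400 to 21900 and 647 to 1630 RPKM). Of 5 fibroblast markers 3 fell, of 4 neutrophil markers 2 rose, and 6 of 7 neuronal and neuroendocrine markers fell, with no listed marker at 0 in every library. In Myc-CaP, the leukocyte list summed to between 3.91 and 5.52 TPM, the proliferation list to between 3200 and 3470 TPM with 1 of 10 called lower, and 4 seminal vesicle genes were at 0 in every library. The part of these shifts in the results for the remodeller genes was not tested.

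In the epithelium, 13 of the 16 tested genes outside SWI/SNF and NuRD rose and 0 fell, while SWI/SNF and NuRD genes moved in both directions. Calls were made at an adjusted p under 0.05 (limma on log2 of RPKM + 1, Benjamini-Hochberg over all 16275 genes tested). Of the 51 genes, 46 had a mean of at least 0.5 RPKM and were tested, and 25 were called, 17 higher and 8 lower. That is 54.3% of those tested, near the background of 57.1% of all genes called in this comparison. The 17 called higher are 37.0% of the 46, beside 27.5% of all genes, and the 8 called lower are 17.4%, beside 29.6% of all genes. The groups did not overlap in 32 of the 46 genes, 23 with all libraries labelled Arid1a KO above and 9 with all of them below, beside 66.7% of all genes tested without overlap. The median change on the log2 scale was 0.13 over the 46 genes, beside -0.028 over all genes tested. The 5 genes under the filter (Actl6b, Dpf1, Dpf3, Chd5 and Smarca1) are given below with their families.

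**Figure D1:**
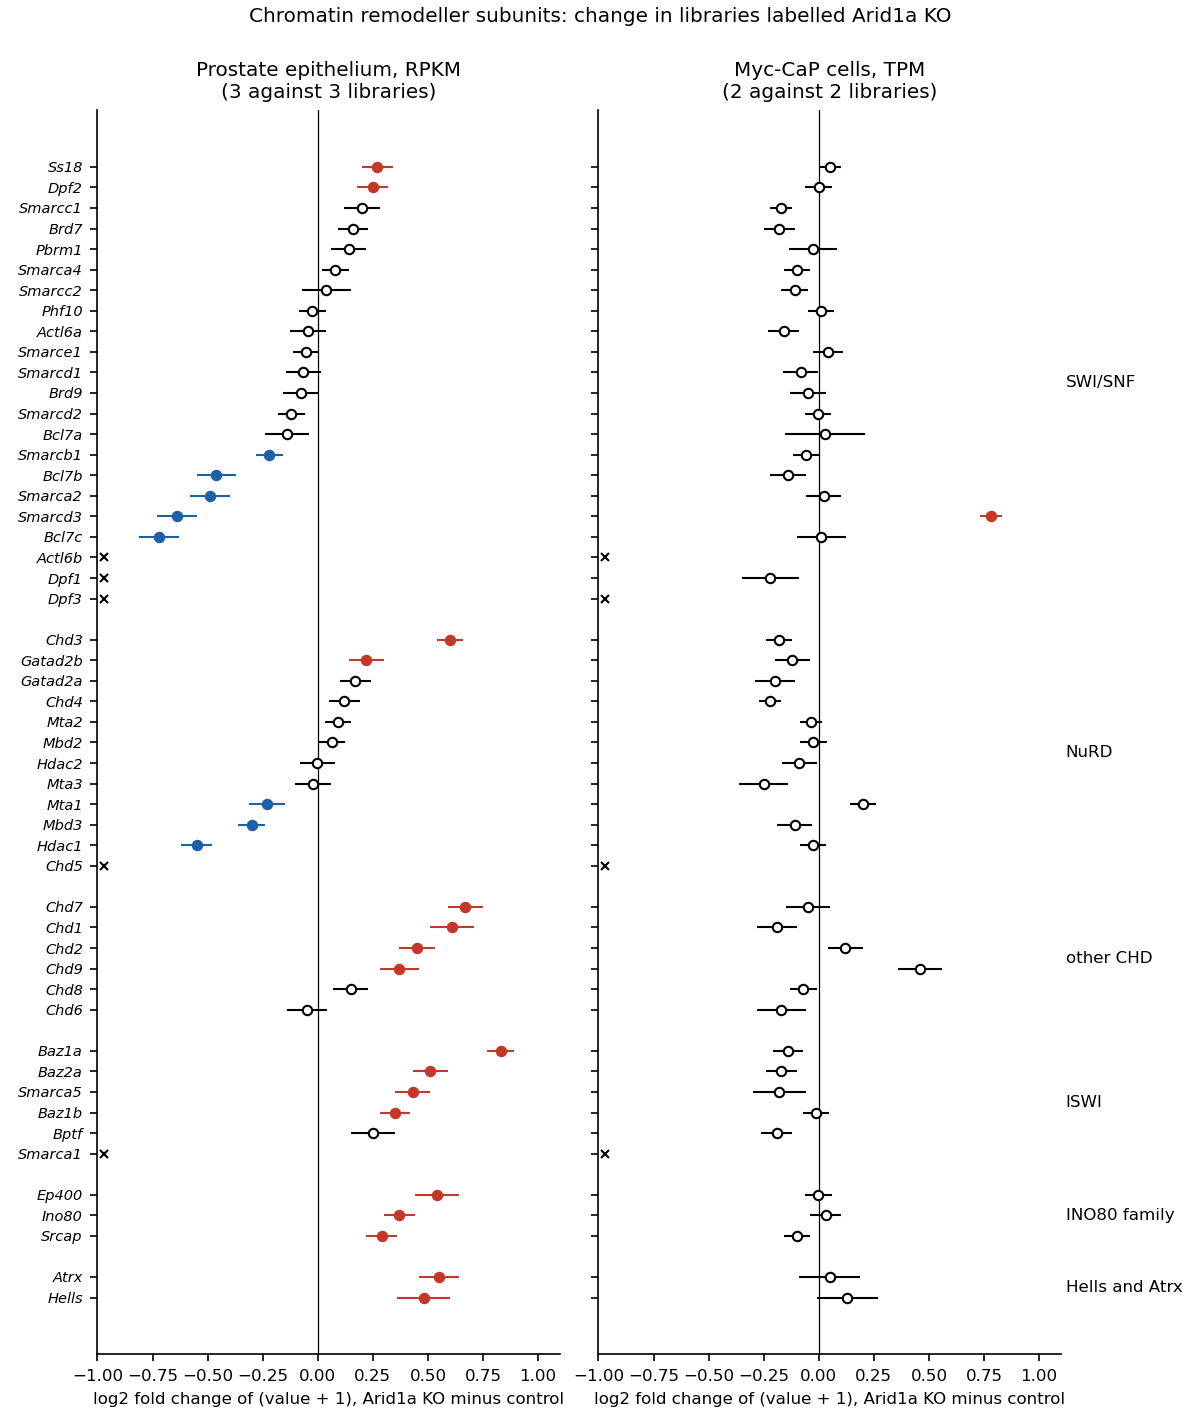
Log2 fold change of value + 1 (Arid1a KO minus control, x axis) with its standard error for the 51 genes (y axis, grouped by complex) in prostate epithelium (left) and Myc-CaP cells (right). Filled points passed an adjusted p of 0.05 (red higher, blue lower), open points did not, and crosses at the left edge mark genes not tested. In the epithelium all 13 called genes below the NuRD block lie right of 0, and in Myc-CaP Smarcd3 at 0.78 is the only filled point.

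The 13 called genes outside SWI/SNF and NuRD were all higher, with a median log2 fold change of 0.44 over the 16 tested, and 7 of the 13 kept their call once the trend with gene length described below was removed. Outside SWI/SNF and NuRD, 81.2% of the tested genes were called higher, beside 27.5% of all genes. Of the 30 tested SWI/SNF and NuRD genes, 12 were called, 4 higher and 8 lower, with a median of -0.024. That is 40.0% called, 13.3% higher and 26.7% lower, beside 57.1%, 27.5% and 29.6% of all genes. Falls were thus no more frequent in SWI/SNF and NuRD than among all genes. Grouped by role, of the 16 ATPase genes tested, 11 rose, 1 fell and 4 were not called (median log2 fold change 0.40). That is 68.8% higher and 6.25% lower, beside 27.5% and 29.6% of all genes. Of the 30 other subunits 6 rose, 7 fell and 17 were not called (median -0.012), so 43.3% were called, beside 57.1% of all genes. With the length trend removed, 8 of the 16 ATPase genes were called, 6 higher and 2 lower, and their median was 0.18. The other subunits were not counted apart in that fit.

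In SWI/SNF, 19 of 22 genes were tested, 2 rose and 5 fell (10.5% and 26.3%, beside 27.5% and 29.6% of all genes). The largest fall was that of Bcl7c, which encodes a small accessory subunit of the ATPase module. It was at 6.89, 8.24 and 6.88 RPKM in the controls and at 3.87, 4.12 and 4.15 RPKM with the label Arid1a KO. The groups did not overlap, and the log2 fold change was -0.72 (SE 0.09, adjusted p = 3.81e-04). Its paralog Bcl7b was at 25.96, 28.05 and 25.3 RPKM in the controls and at 20.2, 16.8 and 20.05 RPKM in the other group, also without overlap (log2 fold change -0.46, SE 0.09, adjusted p = 0.00313). Bcl7b and Bcl7c are among the 4 genes of the list whose promoters hold the E-box shown above. The others, Bptf and Pbrm1, had log2 fold changes of 0.25 and 0.14 and were not called. A link between the motif and the changes was not tested. Bcl7a, the third paralog, overlapped between the groups (log2 fold change -0.14, adjusted p = 0.254).

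Smarcd3 (BAF60C, a subunit that links the complex to transcription factors in muscle and heart) was at 3.33, 3.56 and 3.73 RPKM in the controls and at 1.96, 2.11 and 1.69 RPKM with the label Arid1a KO. Every library so labelled was below every control (log2 fold change -0.64, SE 0.09, adjusted p = 7.41e-04). Its paralogs were not called, with log2 fold changes of -0.12 for Smarcd2, the most abundant, and -0.066 for Smarcd1. Smarca2, the BRM ATPase, was at 13.8, 11.6 and 14.1 RPKM in the controls and at 8.28, 9.51 and 9.44 RPKM in the other group. The groups did not overlap, and the log2 fold change was -0.49 (SE 0.09, adjusted p = 0.00315). Smarca4, the BRG1 ATPase, was at 32.1, 33.1 and 32.3 RPKM in the controls and at 35.1, 32.8 and 35.4 RPKM in the other group, which overlapped (log2 fold change 0.08, SE 0.06, adjusted p = 0.266).

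The remaining SWI/SNF genes changed little. Smarcb1 (SNF5, a core subunit and tumour suppressor) fell by 0.22 on the log2 scale, from a mean of 37.1 ± 1.46 to 31.6 ± 0.412 RPKM (SD, n = 3). Ss18, a BAF subunit known from the gene fusion of synovial sarcoma, rose by 0.27, and Dpf2 (BAF45D, a PHD finger subunit) rose by 0.25. The 12 tested genes that were not called are Smarca4, Smarcc1, Smarcc2, Smarcd1, Smarcd2, Smarce1, Actl6a, Phf10, Pbrm1, Brd7, Brd9 and Bcl7a, with log2 fold changes from -0.14 to 0.20. Among them are the PBAF subunits Pbrm1 (0.14) and Brd7 (0.16) and the scaffold subunits Smarcc1 (0.20, adjusted p = 0.0675) and Smarcc2 (0.039). The neuronal subunits were below the filter, with Actl6b (BAF53B) at 0.122 ± 0.0409, Dpf1 at 0.355 ± 0.061 and Dpf3 at 0.0871 ± 0.0389 RPKM in the controls, and each was lower in all 3 libraries labelled Arid1a KO, at 0.00631 ± 0.0109, 0.159 ± 0.0351 and 0.0267 ± 0.0173 RPKM. In the same libraries the neuronal and neuroendocrine marker list summed to 13.1 to 15.1 RPKM, against 28.4 to 33.4 RPKM in the controls.

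In NuRD, 11 of 12 genes were tested, 2 rose and 3 fell (18.2% and 27.3%, beside 27.5% and 29.6% of all genes). The motor Chd3 was at 37.1, 33.4 and 35.9 RPKM in the controls and at 55.5, 53.1 and 54.2 RPKM with the label Arid1a KO. The groups lay far apart (log2 fold change 0.60, SE 0.06, adjusted p = 2.03e-04). The alternative motor Chd4 was at 67.3, 60.2 and 67.95 RPKM in the controls and at 67.6, 73.9 and 71.6 RPKM in the other group, with overlap (log2 fold change 0.12, SE 0.07, adjusted p = 0.173). The deacetylase Hdac1 was at 50.8, 50.5 and 48.8 RPKM in the controls and at 34.9, 31.3 and 35.8 RPKM in the other group. This was the largest fall in NuRD (log2 fold change -0.55, SE 0.07, adjusted p = 4.58e-04), while its paralog Hdac2 stayed near 20.7 RPKM in both groups (log2 fold change -0.0022). Mbd3, the MBD subunit that does not read methylated CpG, fell by 0.30 and Mta1 fell by 0.23, whereas Gatad2b, a linker between the MBD protein and the motor, rose by 0.22 (adjusted p = 0.0466). Mta1 kept its call in 6 of 14 alternative analyses and Gatad2b in 5 of 14, so those calls are weak. Mbd2, Mta2, Mta3 and Gatad2a were not called, with log2 fold changes from -0.022 to 0.17, and Chd5, a largely neuronal motor, was below the filter at 0.381 ± 0.0142 RPKM in the controls and 0.223 ± 0.0349 RPKM in the other group.

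Of the 6 CHD genes outside NuRD, 4 rose (66.7%, beside 27.5% of all genes) and 0 fell. Chd7, the motor mutated in CHARGE syndrome, was at 11.7, 10.6 and 11.7 RPKM in the controls and at 18.9, 20.3 and 16.9 RPKM with the label Arid1a KO (log2 fold change 0.67, SE 0.08, adjusted p = 4.58e-04). Chd1, which binds methylated histone H3 lysine 4 at active genes and is often deleted in human prostate cancer, was at 8.75, 6.47 and 7.85 RPKM in the controls and at 11.8, 12.5 and 12.2 RPKM in the other group (log2 fold change 0.61, SE 0.10, adjusted p = 0.00179). For both genes, the lowest library labelled Arid1a KO was above the highest control. Chd2 was at 10.4, 9.07 and 11.2 RPKM in the controls and at 14.3, 14.6 and 14.05 RPKM in the other group (log2 fold change 0.45, adjusted p = 0.00261), and exons of other genes on the same strand cover 18.4% of its exon bases in GENCODE M21. Chd9 was low, at 2.01, 1.62 and 1.90 RPKM in the controls and 2.57, 2.62 and 2.84 RPKM in the other group (log2 fold change 0.37, adjusted p = 0.00824). The remaining pair was not called. Chd8 was at 12.7, 10.7 and 12.2 RPKM in the controls and 12.8, 12.8 and 14.04 RPKM in the other group (log2 fold change 0.15, adjusted p = 0.148). Chd6 was at 6.74, 5.74 and 6.31 RPKM and at 5.78, 5.68 and 6.63 RPKM in these groups (log2 fold change -0.048, adjusted p = 0.66), which overlapped.

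Of 6 ISWI genes, 5 were tested and 4 rose. Baz1a (ACF1), the partner with which the ISWI motor forms the ACF and CHRAC spacing complexes, had the largest change of all 46 genes. It was at 11.9, 11.7 and 12.03 RPKM in the controls and at 21.7, 23.3 and 20.8 RPKM with the label Arid1a KO (log2 fold change 0.83, SE 0.06, adjusted p = 6.15e-05). The controls were nearly equal to one another, and the gap to the other group was many times the spread within either. The motor Smarca5 (SNF2H) was at 19.2, 16.6 and 18.3 RPKM in the controls and at 22.2, 25.7 and 25.9 RPKM in the other group (log2 fold change 0.43, SE 0.08, adjusted p = 0.0039). Baz2a (TIP5), its partner in the nucleolar complex that silences ribosomal genes, was at 11.2, 9.23 and 10.6 RPKM in the controls and at 14.4, 15.1 and 15.9 RPKM in the other group (log2 fold change 0.51, SE 0.08, adjusted p = 0.00166). Baz1b (WSTF) rose by 0.35. Bptf, the large subunit of NURF, had all libraries labelled Arid1a KO above the controls but was not called (log2 fold change 0.25, adjusted p = 0.0693). Smarca1 (SNF2L), the second ISWI motor, was below the filter at 0.587 ± 0.176 RPKM in the controls and 0.32 ± 0.134 RPKM in the other group.

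All 3 ATPases of the INO80 family rose, as did Hells and Atrx, beside 27.5% of all genes called higher. Ino80 was at 5.36, 5.17 and 5.31 RPKM in the controls and at 6.70, 7.15 and 7.52 RPKM with the label Arid1a KO (log2 fold change 0.37, SE 0.07, adjusted p = 0.00307). Ep400, the motor of the TIP60 complex, was at 8.67, 6.59 and 8.45 RPKM in the controls and at 11.96, 11.5 and 12.2 RPKM in the other group (log2 fold change 0.54, SE 0.10, adjusted p = 0.00298). Srcap, which deposits H2A.Z, was at 15.6, 13.1 and 14.3 RPKM in the controls and at 17.9, 17.4 and 17.99 RPKM in the other group (log2 fold change 0.29, SE 0.07, adjusted p = 0.0119). In none of the 3 did the groups overlap, and exons of other annotated genes on the same strand cover 61.7% of the exon bases of Srcap. Hells (LSH), a remodeller needed for DNA methylation that is abundant in dividing cells, was at 1.23, 1.42 and 0.924 RPKM in the controls and at 1.74, 2.22 and 2.21 RPKM in the other group (log2 fold change 0.48, SE 0.12, adjusted p = 0.00955). Atrx, which places histone H3.3 at heterochromatin, was at 8.04, 6.23 and 7.52 RPKM in the controls and at 10.5, 11.1 and 11.5 RPKM in the other group (log2 fold change 0.55, SE 0.09, adjusted p = 0.00204). Both were without overlap, and the proliferation markers rose in the same libraries, Mki67 from 4.5 ± 0.242 to 9.81 ± 0.322 RPKM (SD, n = 3).

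**Figure D2:**
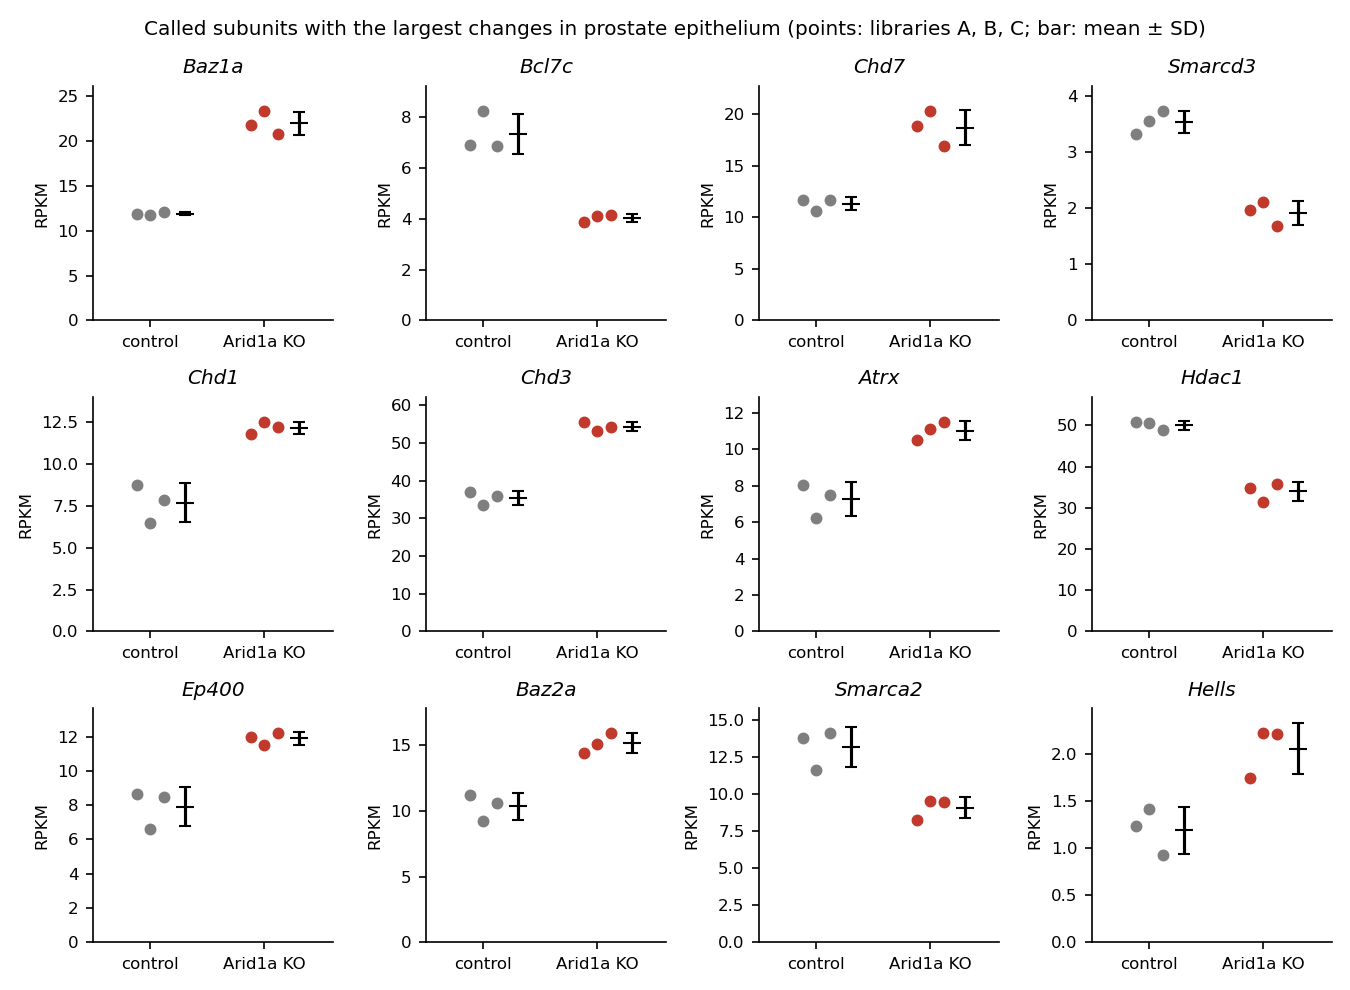
RPKM (y axis, from 0) in each of the 3 control and 3 libraries labelled Arid1a KO for the 12 called genes with the largest absolute change, with the mean and SD beside the points. Bcl7c, Smarcd3, Hdac1 and Smarca2 are lower in every library labelled Arid1a KO and the other 8 genes higher, with Baz1a between 20.8 and 23.3 RPKM against 11.7 to 12.03 RPKM in the controls.

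Gene length moved with these changes in the epithelium. The summed exon length (GENCODE M21) had a median of 10730 bases in the 17 genes that rose, 5589 bases in the 21 genes not called and 4282.5 bases in the 8 that fell. The 16 tested ATPase genes had a median of 13878.5 bases and the 30 other subunits a median of 5570.5 bases. Over all genes tested, the median log2 fold change was -0.10 for exon lengths under 1000 bases, where no subunit gene lies, -0.27 for 1000 to 2000 bases, -0.14 for 2000 to 4000 bases, 0.032 for 4000 to 8000 bases, 0.18 for 8000 to 16000 bases and 0.28 above 16000 bases, so that the medians rose from 1000 bases upward and long genes as a class were higher under the Arid1a KO label. When this trend was removed, 16 of the 46 genes were called, 8 higher and 8 lower, beside 54.1% of all genes with a length. Of the 17 rises, 8 kept their call, those of Chd3, Chd1, Chd7, Smarca5, Baz1a, Baz2a, Ino80 and Hells, and the median of the 46 genes became -0.015. The rises of Chd2, Chd9, Baz1b, Srcap, Ep400, Atrx, Ss18, Dpf2 and Gatad2b lost theirs. Of the falls, those of Smarca2 (-0.77), Smarcb1, Smarcd3, Bcl7b, Bcl7c and Hdac1 were kept, and those of Mbd3 and Mta1 were lost, while Bcl7a (-0.34) and Chd6 (-0.39) were newly called lower. In Myc-CaP, the median of all genes lay between -0.022 and 0.014 in every length class.

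**Figure D3:**
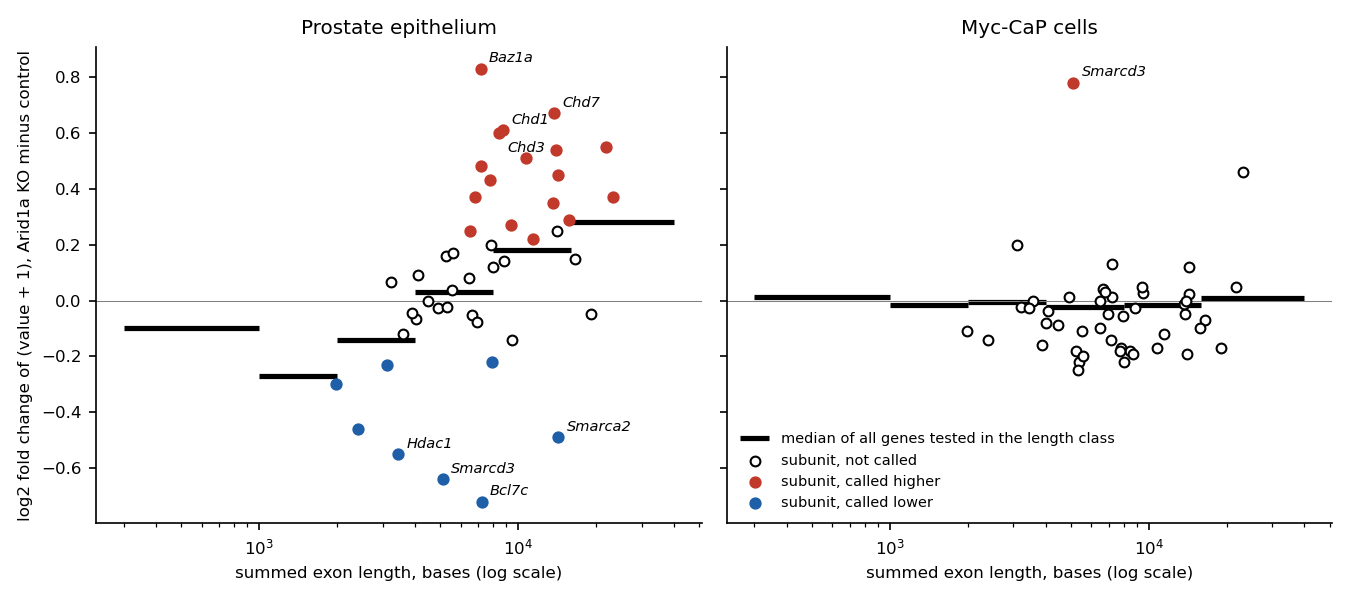
Log2 fold change (y axis) of each tested gene against its summed exon length in bases (x axis, log scale) in the epithelium (left) and Myc-CaP (right). Black bars are the median of all genes tested in each length class, which is -0.10 below 1000 bases and climbs from there on from -0.27 to 0.28 in the epithelium and stays near 0 in Myc-CaP. Called genes were selected by their change, so their place against the bars is not a test. Of the 17 called rises in the epithelium, 8 kept their call once the length trend was removed.

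The scale of the libraries also bore on the counts. The RPKM values summed to 441646, 473331 and 445649 in the controls and to 400755, 397999 and 403031 in the libraries labelled Arid1a KO. After rescaling to the same sum, the median change of all genes was 0.11 on the log2 scale and that of the 46 genes was 0.30, and 32 were called, 27 higher and 5 lower, beside 57.3% of all genes called (37.2% higher, 20.1% lower). The falls of Bcl7b, Bcl7c, Smarcd3, Hdac1 and Smarca2 were kept, those of Smarcb1, Mbd3 and Mta1 were not, and all 17 rises were kept. In the 14 alternative analyses, 8 of the 17 rises and 5 of the 8 falls were called every time that the gene was tested. The rises are Chd3, Chd1, Chd7, Smarca5, Baz1a, Baz2a, Ino80 and Hells, and the falls are Smarca2, Smarcd3, Bcl7b, Bcl7c and Hdac1.

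In Myc-CaP, Smarcd3 was the only gene of the list that was called. It was at 90.9 and 91.7 TPM with EV and at 154.8 and 159.8 TPM with Arid1a KO, and the 2 pairs of libraries were far apart (log2 fold change 0.78, SE 0.05, adjusted p = 0.00479). It was thus higher in these cells and lower in the epithelium under the same label, a difference that was not tested because the tables were normalized separately. Of the 51 genes, 47 were tested (Actl6b, Dpf3, Chd5 and Smarca1 had means under 0.5 TPM). The 1 called gene is 2.13% of them, beside 6.43% of all 13974 genes called, 4.54% higher and 1.89% lower. The median change on the log2 scale was -0.057 over the 47 genes, beside -0.014 over all genes tested. With any 1 of the 4 libraries left out, 0 of the genes were called, Smarcd3 included, at adjusted p-values up to 0.0755 and log2 fold changes of 0.76 to 0.80 for Smarcd3, while 0.336% to 0.545% of all genes were called.

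The Smarcd3 locus has a neighbour on the other strand. Exons of other genes on the opposite strand cover 48.2% of the exon bases of Smarcd3, and 0% is shared on the same strand. The overlapping gene Chpf2, a chondroitin polymerising factor at chromosome 5 from 24586741 to 24594556 on the plus strand, was 37.2 and 37.4 TPM with EV and 55.8 and 56.8 TPM with Arid1a KO. It was called higher (log2 fold change 0.58, SE 0.06, adjusted p = 0.0109). In the epithelium, Chpf2 was at 13.2, 13.2 and 13.6 RPKM in the controls and at 11.1, 12.3 and 11.97 RPKM with the label Arid1a KO, and was not called (log2 fold change -0.17, adjusted p = 0.056). The study's methods state that reads were counted by strand, and whether reads of one gene entered the other's count was not tested.

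Of the 16 ATPase genes tested in Myc-CaP, 0 were called, 10 had a log2 fold change below 0 and 6 above 0, and the median was -0.059. Of them, 3 (Chd3, Chd4 and Chd9) had an unadjusted p under 0.05, a threshold at which the share of all genes was not counted. Chd9 was at 8.75 and 9.41 TPM with EV and at 12.2 and 13.6 TPM with Arid1a KO, the largest difference among them (log2 fold change 0.46, adjusted p = 0.0742). Chd4 was at 197.6 and 192.1 TPM with EV and at 168.5 and 164.9 TPM with Arid1a KO (log2 fold change -0.22, adjusted p = 0.0798), and Chd3 was at 49.6 and 51.04 TPM and at 44.98 and 43.8 TPM (-0.18, adjusted p = 0.179). In these 3 genes the groups did not overlap.

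The other tested ATPase genes of Myc-CaP were not called, and their log2 fold changes lay between -0.19 and 0.13. Smarca4 was at 144.9 and 141.2 TPM with EV and at 137.5 and 129.2 TPM with Arid1a KO (log2 fold change -0.10), and Smarca2 was at 26.8 and 27.1 TPM and at 28.6 and 26.2 TPM (0.022). Smarca5 was at 209.3 and 249.2 TPM with EV and at 185.1 and 218.7 TPM with Arid1a KO (-0.18), an example of libraries that differed as much within a group as between groups. Chd1 was at 60.2 and 67.5 TPM with EV and at 52.7 and 59.3 TPM with Arid1a KO (-0.19), and Chd7, which rose in the epithelium, was at 15.3 and 17.8 TPM and at 15.8 and 16.1 TPM (-0.047). Of these 5, Smarca4 and Chd1 had groups that did not overlap. Chd2 was at 16.6 and 15.9 TPM with EV and at 17.9 and 17.6 TPM with Arid1a KO (0.12), Chd6 was at 7.84 and 8.46 TPM and at 6.68 and 7.62 TPM (-0.17), and Chd8 was at 38.02 and 38.8 TPM and at 36.2 and 36.9 TPM (-0.07). The groups of Chd2, Chd6 and Chd8 did not overlap. In the INO80 family, Ino80 was at 25.8 and 26.9 TPM with EV and at 26.5 and 27.4 TPM with Arid1a KO (0.032). Ep400 was at 51.9 and 51.04 TPM with EV and at 51.4 TPM in both Arid1a KO libraries (-0.0019). These values were nearly equal, whereas Srcap, at 54.2 and 56.4 TPM with EV and at 50.8 and 52.2 TPM with Arid1a KO (-0.10), did not overlap between the groups. Hells was at 58.7 and 69.8 TPM with EV and at 62.3 and 78.5 TPM with Arid1a KO (0.13), and Atrx was at 31.1 and 38.5 TPM and at 32.5 and 39.6 TPM (0.049), and the groups of both genes overlapped.

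By complex, the median log2 fold change in Myc-CaP was -0.038 for 20 SWI/SNF genes, -0.11 for 11 NuRD genes, -0.059 for 6 other CHD genes, -0.17 for 5 ISWI genes and -0.0019 for the 3 INO80 family ATPases. Of the 47 genes, 34 had a log2 fold change below 0, and the groups did not overlap in 27 (5 higher, 22 lower), near the 51.5% of all genes without overlap in this table. The share of all genes at an unadjusted p under 0.05 was not counted, so counts at that threshold have no background here. Of the 47 genes, 8 were under it, the called Smarcd3 among them. Beside the ATPases named above these were Mta1 (0.20, 165.9 and 158.4 TPM with EV, 193.7 and 179.1 TPM with Arid1a KO), Smarcc1 (-0.17), Brd7 (-0.18) and Bptf (-0.19). The genes under the filter were at or near 0, with Actl6b listed at 0 in all 4 libraries and Smarca1 at 0.0477 ± 0.0674 TPM with EV and 0.0323 ± 0.0456 TPM with Arid1a KO (SD, n = 2).

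The order of levels within a table can be read per length. In the epithelium controls, the most abundant of the 51 genes were Mbd3 (80.1 ± 4.89 RPKM), Chd4 (65.2 ± 4.33), Hdac1 (50.1 ± 1.08), Mbd2 (48.9 ± 1.09) and Smarcd2 (43.7 ± 1.61), of which Hdac1 and Mbd2 differed by little more than 1 SD. In the EV libraries of Myc-CaP they were Mbd3 (248 ± 12.6 TPM), Smarca5 (229 ± 28.2), Chd4 (195 ± 3.93), Mta1 (162 ± 5.31) and Mta2 (153 ± 3.84), and Mbd3 and Smarca5 did not differ beyond their spread. NuRD genes took most of these places in both systems. Hells, one of the lowest tested genes in the epithelium controls (1.19 ± 0.25 RPKM), was at 64.3 ± 7.87 TPM in the EV libraries, where the proliferation list was also high. Levels in RPKM and TPM from separately normalized tables are set side by side here and not compared by a test.

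The share of each paralog in the summed level of its family was examined because a ratio within a library does not depend on how the library was scaled. In the epithelium, 34 shares in 13 families were computed, and the groups were apart in 25 of them, beside the 66.7% of single genes without overlap in this table. The shares of a family add up to the whole, so that in a pair each share mirrors the other. The 34 shares are thus not independent, and the count is not directly comparable with that of single genes. With 3 libraries against 3, each of the 25 reached the smallest two-sided p that the exact permutation test allows, 0.1, or 0.136 after Benjamini-Hochberg adjustment over the 34 shares, so none could pass 0.05. The SWI/SNF motors shifted towards BRG1. Smarca4 made up 70.0%, 74.01% and 69.7% of the pair in the controls and 80.9%, 77.5% and 78.9% with the label Arid1a KO, and the log2 ratio of Smarca2 to the pair differed by -0.46 (SE 0.10, exact permutation p = 0.1). The NuRD motors shifted towards Chd3, which made up 35.4%, 35.6% and 34.4% of the 3 genes in the controls and 44.98%, 41.7% and 43.02% in the other group, with Chd4 down from a mean of 64.5% ± 0.635 to 56.6% ± 1.66 (SD, n = 3). The deacetylases shifted towards Hdac2, from 28.5%, 29.8% and 29.3% to 35.7%, 42.2% and 35.6%.

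Further families shifted, in the following cases with groups that did not overlap. Mbd2, which reads methylated CpG, made up 38.7%, 36.7% and 38.4% of the MBD pair in the controls and 43.2%, 44.5% and 44.8% with the label Arid1a KO. Within CHD6 to CHD9, Chd7 rose from 36.3% ± 0.81 to 46.01% ± 3.77 as a mean share, and Chd6 went from 20.02% ± 0.349 to 14.9% ± 1.39 and Chd8 from 37.8% ± 0.429 to 32.5% ± 2.0 (SD, n = 3). Dpf2 went from 54.97% ± 0.555 to 60.4% ± 0.532 of the BAF45 family, and Phf10, its PBAF counterpart, from 43.4% ± 0.239 to 39.01% ± 0.643. Smarcd3 made up 6.17%, 6.37% and 6.71% of the BAF60 family in the controls and 3.95%, 4.33% and 3.38% in the other group, a difference in log2 ratio of -0.73 (SE 0.11). Chd1 and Chd2 rose in step, with 42.8% ± 2.5 and 45.9% ± 0.681 for Chd1 in the pair and overlapping groups, and the shares of Gatad2a and Gatad2b, of Bcl7b in the BCL7 family and of Mta3 in the MTA family also overlapped.

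In Myc-CaP, the groups were apart in 20 of 32 shares in 12 families, beside 51.5% of single genes, and with 2 libraries against 2 the exact permutation p cannot go below 0.333 (0.533 adjusted over the 32 shares). Here too the shares of a family are not independent of one another. In percentage points, the BAF60 family changed most. Smarcd3 made up 38.2% and 39.7% of it with EV and 53.2% and 52.6% with Arid1a KO, and Smarcd2 went from 38.7% and 38.5% to 30.4% in both libraries. Smarcd2 and Smarcd3 were thus nearly equal with EV, and Smarcd3 held the largest share in both Arid1a KO libraries. Smarcd2 itself was at 92.03 and 89.1 TPM with EV and at 88.5 and 92.2 TPM with Arid1a KO (log2 fold change -0.0031). Its share fell without a called change in its level. Chd9 went from 12.5% and 12.6% to 17.2% and 18.3% of CHD6 to CHD9, which on the log2 ratio was a difference of 0.50, against 0.44 for Smarcd3. Smarca4 stayed between 82.8% and 84.4% of the SWI/SNF motor pair in all 4 libraries, and Chd4 between 78.8% and 79.9% of its family, so the shifts of the motor pairs described for the epithelium were not seen at that size here. The difference between the systems was not tested.

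**Figure D4:**
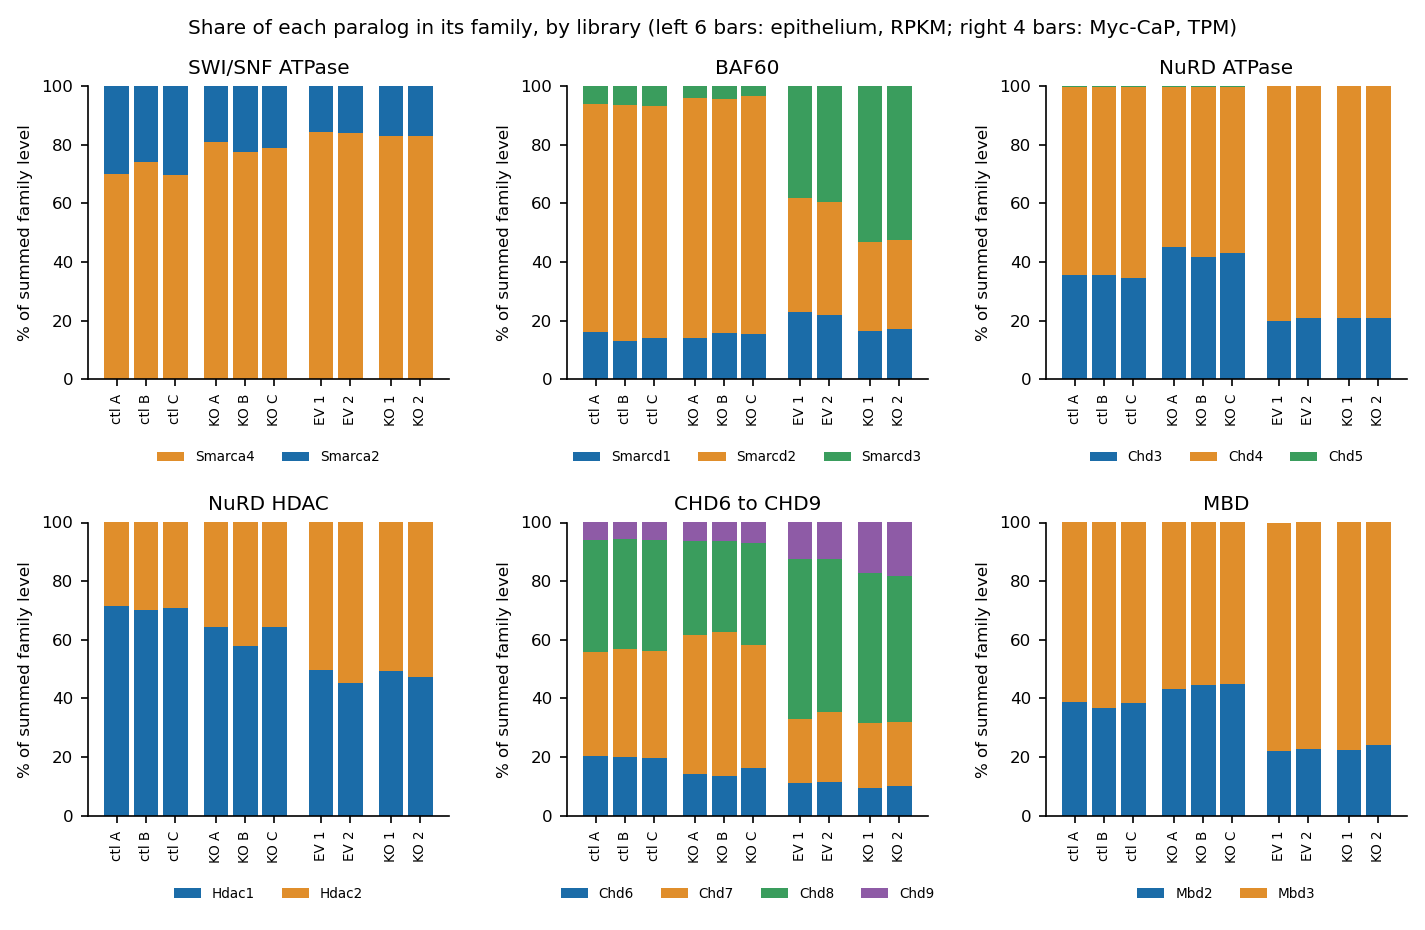
Share of each paralog in the summed level of its family in percent (y axis, 0 to 100) for each library (x axis), with the 3 control and 3 Arid1a KO libraries of the epithelium on the left of each panel and the 2 EV and 2 Arid1a KO libraries of Myc-CaP on the right. Smarca4, Chd3, Hdac2, Chd7 and Mbd2 take larger shares in all 3 epithelium libraries labelled Arid1a KO than in the controls, and Smarcd3 goes from 39.7% or less to 52.6% or more in Myc-CaP.

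Partner subunits outside the list were counted in the same fits. Of 50 further genes (ARID subunits without Arid1a, and partners of SWI/SNF, NuRD, ISWI, INO80 and other SNF2-like proteins), 49 were tested in the epithelium, 14 rose and 16 fell (61.2% called, beside the 57.1% of all genes), with a median log2 fold change of 0.05. Of 28 INO80 family partners 5 rose and 9 fell (17.9% and 32.1%, beside 27.5% and 29.6% of all genes). All 3 motors of that family rose, and 1 of them kept its call with the length trend removed. The partners were not counted with that trend removed, so a difference from the motors apart from length was not tested. Of 4 tested ISWI partners 2 rose and 2 fell. The 5 called partners with the largest changes were Chrac1 (a histone-fold subunit of CHRAC, -0.64), Rbbp7 (a histone chaperone of NuRD, -0.62), Ino80b (-0.61), Ercc6 (the CSB repair ATPase, 0.60) and Ino80d (0.57). Chrac1 was at 25.3, 23.3 and 24.1 RPKM in the controls and at 15.3, 14.6 and 15.6 RPKM with the label Arid1a KO, without overlap (adjusted p = 1.44e-04), against the rise of its complex partner Baz1a. The exon lengths of Chrac1 (2353 bases), Rbbp7 (2909) and Ino80b (1594) lie below, and those of Ercc6 (12851) and Ino80d (17713) above, the median of 3993 bases over all genes tested. In Myc-CaP, 47 of the 50 were tested and 0 were called, with a median log2 fold change of -0.11. An unadjusted p under 0.05 was reached by 8 of them, with no share of all genes counted beside it.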

How the data were processed

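RNA-seq of 10 mouse libraries was analysed from expression tables. The authors mapped the reads to GRCm38/mm10 and counted them per gene and strand with HTSeq (TopHat2 in the study's methods, HISAT2 in the submitters' processing notes). They deposited the epithelium values as RPKM and the Myc-CaP values as TPM, with gene lengths and annotation not given in the sources used here. RPKM keep no fixed sum and TPM sum to the same total, so that a few abundant genes can shift all others, and the depth of the TPM libraries is unknown. Each table held 48897 rows, of which 27 carried a date in place of a symbol. The tables deposited per sample and for the series held the same values (0 differences over 10 samples).

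Each table was fitted alone with limma 3.58.1 (R 4.3.3) on log2(value + 1), which understates changes of low genes. The test was limited to genes with a mean of 0.5 or more, eBayes used a trend, p-values were two-sided and adjusted by Benjamini-Hochberg over all genes tested, and a call was an adjusted p under 0.05. The fit was run on simulated data in which few genes changed. Most genes were called in the epithelium, so the simulation does not show how the fit performs there. The study used a count test, which these units do not allow. The epithelium libraries are from 3 mice per group. A further engineered allele, shared by both of these groups, is not reported here. Nothing states that the Myc-CaP libraries are separate cultures, so their p-values measure only the spread between these samples. Shares of paralogs were computed without a pseudocount and compared by two-sided exact permutation tests. Exon lengths and overlaps came from GENCODE M21, which covered 89.1% of the tested epithelium genes and 85.5% of the Myc-CaP genes, and promoters from RefSeq. The length trend was removed with a loess fit (span 0.5).

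The genes and lists were chosen with earlier results of these data known. All 51 genes were accounted for, and values per library were given for genes called in Myc-CaP, the 12 called epithelium genes of largest change and every tested ATPase, with those of Bcl7b added as its promoter is shown. The examination of genes near Smarcd3 was chosen after seeing its values. Alternatives were a pseudocount of 0.1, no filter, a minimum mean of 5, quantile normalization, removal of the length trend, eBayes without trend, a replicate block, rescaling to the same sum (epithelium) and leaving out each library. For the paralog shares, the alternatives were a pseudocount of 1 and leaving out each library.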

Additional observations from a re-analysis of the deposited data

Results flagged for a closer look

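In 14 of the 46 genes tested in both tables, every Arid1a KO library lay beyond every control library in both systems but in opposite directions, and in 5 others the direction was shared. The difference between the systems was not tested, since the tables were normalized separately, and groups that do not overlap made up 66.7% of all genes in the epithelium and 51.5% in Myc-CaP. How many of all genes lay apart in both tables, in opposite or in shared directions, was not counted. The 14 and the 5 therefore have no background beside them and are given as a description only. Log2 fold changes are given in the epithelium first and in Myc-CaP second. Smarcd3 was the 1 gene called in both tables, at -0.64 and 0.78. In NuRD, Chd3 was at 0.60 and -0.18, Mta1 at -0.23 and 0.20, Mta2 at 0.092 and -0.036, Gatad2a at 0.17 and -0.20, and Gatad2b at 0.22 and -0.12. In SWI/SNF, Smarcc1 was at 0.20 and -0.17 and Brd7 at 0.16 and -0.18. Among the ISWI genes, Baz1a was at 0.83 and -0.14, Baz2a at 0.51 and -0.17, and Bptf at 0.25 and -0.19. The remaining 3 were Chd1 at 0.61 and -0.19, Chd8 at 0.15 and -0.07, and Srcap at 0.29 and -0.10. With the length trend removed, the epithelium values of Chd8 (-0.16), Bptf (-0.033), Gatad2b (-0.018) and Srcap (-0.0082) turned sign and so lost the opposition.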

How the results depend on the processing

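The epithelium gave 25 calls with a pseudocount of 0.1 and with the replicate block, as in the reported fit. The counts that moved most were those with the length trend removed, 16 called of which 8 were higher, and those after rescaling to the same sum, 27 higher and 5 lower. Leaving out 1 library gave 22 to 25 calls in the epithelium (15 to 18 higher, 7 to 8 lower) and 0 calls in Myc-CaP. The letters A, B and C did not pair the epithelium libraries (correlations of same-letter deviations from the group means 0.04, 0.01 and -0.06). In Myc-CaP, with only 2 pairs, same-number libraries correlated at 0.19, and the replicate block gave 11 calls, 3 higher and 8 lower, in place of 1, while 19.8% of all genes were called in that fit. Those libraries are known to share only a number. Of the subunit genes tested, removing the length trend turned the direction of 8 in the epithelium, Smarca4 (-0.027), Smarcc2 (-0.027), Pbrm1 (-0.036), Chd4 (-0.034), Gatad2b (-0.018), Chd8 (-0.16), Bptf (-0.033) and Srcap (-0.0082), and of 2 in Myc-CaP, Smarcd2 (0.0021) and Dpf2 (0.0061). Rescaling to the same sum turned 10 in the epithelium, Smarcd1 (0.091), Smarcd2 (0.053), Smarce1 (0.12), Actl6a (0.12), Phf10 (0.14), Brd9 (0.079), Bcl7a (0.014), Mta3 (0.13), Hdac2 (0.17) and Chd6 (0.11). Quantile normalization turned Hdac2 (0.0077) in the epithelium and Bcl7a (-0.025) and Bcl7c (-0.0058) in Myc-CaP. Leaving out 1 library gave values on both sides of 0 in the epithelium for Actl6a (-0.11 to 0.0028), Hdac2 (-0.073 to 0.038), Mta3 (-0.074 to 0.029), Phf10 (-0.046 to 0.002) and Smarcc2 (-0.068 to 0.11). In Myc-CaP it did so for Smarca2 (-0.039 to 0.083), Smarcd2 (-0.032 to 0.026), Smarce1 (-0.019 to 0.10), Dpf2 (-0.052 to 0.05), Phf10 (-0.013 to 0.035), Pbrm1 (-0.15 to 0.10), Bcl7a (-0.16 to 0.21), Bcl7c (-0.094 to 0.12), Hdac1 (-0.058 to 0.0082), Hdac2 (-0.19 to 0.012), Chd7 (-0.15 to 0.054), Baz1b (-0.054 to 0.03), Ep400 (-0.014 to 0.01), Hells (-0.039 to 0.29) and Atrx (-0.10 to 0.20). No value with a turned direction was called in the analysis that turned it. Of the paralog shares whose groups were apart, 266 alternative values moved by less than the spread between replicates and 9 by more, all 9 with a pseudocount of 1, among them Smarcd3 in the epithelium (-0.49 in place of -0.73). The cause of these changes was not tested.

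The precision is limited by 3 or 2 libraries per group, by RPKM and TPM that hold no counts, and by lengths from GENCODE M21, since the annotation behind the values is not given in the sources used here.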

Other observations

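The genes within 100 kb of Smarcd3 were read out after its values had been seen. In Myc-CaP, 6 neighbours were tested and 2 were called, both higher, the overlapping Chpf2 (0.58) and Nub1, an adaptor that binds the ubiquitin-like protein NEDD8 (0.38, 78.56 and 80.04 TPM with EV, 104.9 and 102.4 TPM with Arid1a KO). Abcf2, on the same strand as Smarcd3, was at 275.2, 266, 271.4 and 270.3 TPM in the 2 EV and the 2 Arid1a KO libraries. In the epithelium, 6 neighbours were tested, 0 were called higher and 1, the gene model Gm10221, was called lower (-0.65).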
